A study of Mus musculus with 8 samples.

Results

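Colonic macrophages with high CX3CR1 from mice with colitis were compared with the same population at steady state. CX3CR1 is the receptor for the chemokine fractalkine and marks the resident macrophages of the gut wall. The comparison used 4 of the 8 arrays of the series, 1 in colitis and 3 at steady state, each from cells sorted from the colonic lamina propria of C57BL/6 mice of the genotype Cx3cr1gfp/+, in which a green fluorescent protein gene replaces 1 copy of Cx3cr1. All 8 groups, steady-state ones included, carry this allele. The colitis array held CX3CR1hi F4/80hi cells, F4/80 being a macrophage surface protein, at day 4 of dextran sodium sulphate (DSS) treatment, and its mice were labelled male. DSS is a sugar polymer that injures the colonic epithelium. The steady-state arrays held CX3CR1hi F4/80hi cells (male), CX3CR1hi resident macrophages (female) and CX3CR1hi monocyte-reconstituted resident macrophages (female). The labels do not say how the reconstitution was done, how old the mice were or how many mice gave each array. The other 4 arrays served as values beside the comparison: CX3CR1int Ly6Clo and CX3CR1int Ly6Chi colonic cells in colitis, both male, and splenic Ly6Chi monocytes at steady state (female) and in colitis (male), with all colitis cells taken at day 4.

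Resident macrophages of the colon take up bacteria and dying cells, release interleukin 10 and do so with little inflammatory signalling. Interferons bind cell-surface receptors and act through transcription factors to switch on antiviral genes and, in the case of interferon gamma, GTPases that attack intracellular microbes. Complement is a cascade of plasma proteins, made in the liver and locally in tissue, that coats microbes for uptake, and heat shock proteins refold damaged proteins.

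Levels here are deposited log2 values minus the median of their array, so that 0 is the median probe set and 1 unit is 2-fold. Steady-state values are given in the order F4/80hi, resident, reconstituted. A gene entered when the brightest of its 4 values was at or above 0, as 10585 of 19938 named genes did. It was above the steady-state range when its colitis value exceeded the highest steady-state value, and below it when the value lay under the lowest. The distance is that gap, negative for genes below the range. The smaller limit was a distance of 0.585, which is 1.5-fold, and the larger was 1. In total 127 genes (1.2%) were above the range by 0.585 or more and 79 (0.746%) below it, and at the limit of 1 there were 18 (0.17%) above and 8 (0.0756%) below. In data simulated with each gene's steady-state mean and SD, 49 unchanged genes passed the limit of 1 in either direction. The counts at that limit thus do not by themselves set these genes apart from the steady-state spread. Without centring on the array medians, the split at the smaller limit was 166 above against 48 below. By any amount 2485 genes (23.5%) were above and 3379 (31.9%) below, and 4721 lay inside.

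With 1 colitis array no difference has a replicate check in colitis. The 3 steady-state arrays supplied the only measure of spread, and they differ from each other in labelled sex and origin. Their range had a median width of 0.293 and was at least 1 for 514 genes (4.86%). The SD over genes of the difference between colitis and the steady-state F4/80hi array was 0.313. Against the resident array it was 0.440 and against the reconstituted array 0.460, while the steady-state arrays differed among themselves with SDs of 0.359 to 0.394. In limma, with 2 residual degrees of freedom, 0 genes (0.0%) had an adjusted p under 0.05. The smallest adjusted p was 0.80, the median standard error was 0.188, and 621 genes had an unadjusted p under 0.05. The terms higher and lower therefore describe these arrays alone. Leaving out 1 steady-state array widened the counts. Without the F4/80hi array 604 genes were below the range by 0.585 and 146 by 1. Without the resident array 203 were above by 0.585 and 59 by 1, and without the reconstituted array the counts above were 163 and 31. On the limit itself, Tgfbr3 (0.586) was the last gene included above and Hmox1 (0.585 after rounding, just under the limit) the first left out, and Plch2 (-0.59) and Myb (-0.58) were the corresponding pair below. At the larger limit the pairs were Ccdc80 (1.00) and Tceal1 (0.998) above, and Casp14 (-1.003) and Acer1 (-0.95) below. Of the 127 genes above, 22 passed the brightness filter through the colitis array alone, and of the 79 below, 13 passed through steady-state arrays alone.

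**Figure D1:**
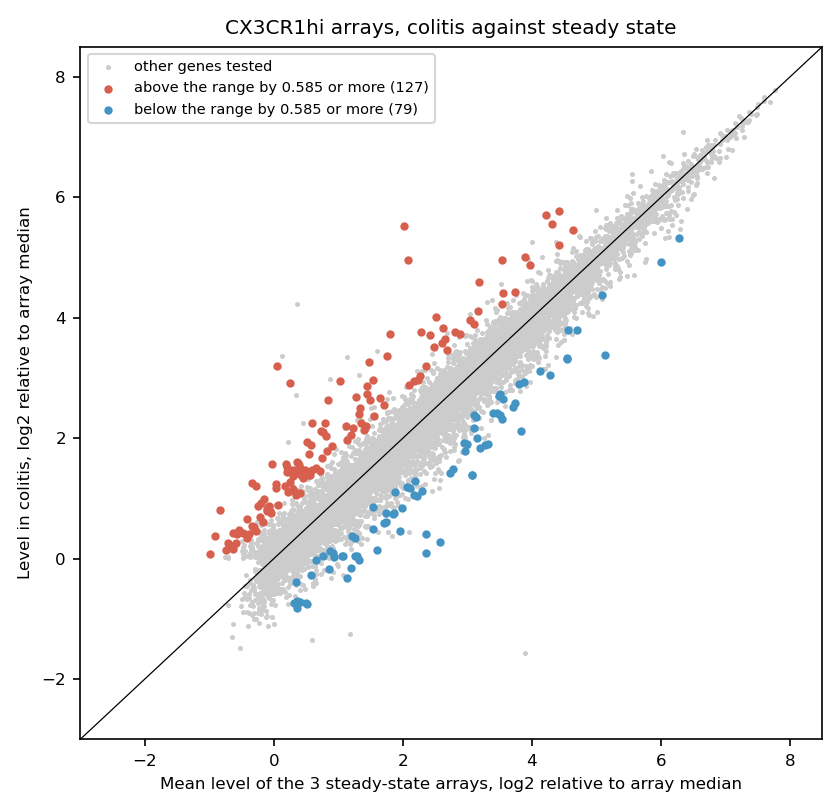
Level of each of 10585 genes in the colitis CX3CR1hi F4/80hi array (vertical axis) against its mean in the 3 steady-state CX3CR1hi arrays (horizontal axis), both in log2 relative to the array median; the line marks equal levels. The 127 genes above the steady-state range by 0.585 or more are red, the 79 below it are blue, and grey points far from the line are genes whose steady-state arrays differed among themselves.

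The cells of all 4 arrays carried the genes of their gate. Cx3cr1 stood at 5.42 in colitis against 5.57, 5.39 and 5.08, and Adgre1, which encodes F4/80, at 6.45 against 6.74, 6.51 and 6.26. Both colitis values lay inside the steady-state range. Of 20 macrophage identity genes, all past the filter, 4 were above and 2 below by any amount. Over all genes 23.5% were above and 31.9% below. Of the 20 identity genes, 0 reached 0.585 in either direction. Their median difference from the mean of the steady-state arrays was 0.04, against -0.04 over all genes. The complement C1q genes C1qa, C1qb and C1qc, the apoptotic cell receptor gene Mertk and the growth factor receptor gene Csf1r differed from that mean by between -0.09 and 0.08. Markers of other cells were also present in all 4 arrays. The goblet cell mucin gene Muc2 stood at 6.96 in colitis against 6.73, 7.01 and 6.78, and the collagen-binding proteoglycan gene Dcn of fibroblasts at 5.56 against 4.22, 4.72 and 3.97. In the splenic monocytes Muc2 stood at -0.73 at steady state and 1.65 in colitis, and Dcn at -0.59 and -0.54. In such bulk samples, fewer cells of a type and less RNA per cell cannot be told apart.

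Antiviral genes that interferons induce were higher in colitis as a list. Of 31 measured members, all past the filter, 25 were above the steady-state range by any amount and 0 below, where 23.5% of all genes were above. By 0.585 or more 5 were above and 0 below, where 1.2% and 0.746% of all genes were. The list's median difference was 0.42, and it was 0.40, 0.39 and 0.28 against the F4/80hi, resident and reconstituted arrays in turn. The 5 genes were Ifi205, Rtp4, Mx2, Ifit2 and Ifit3. The promoters of 2 of them and of 2 interferon-gamma-induced genes that were also above the range, Irgm1 and Gbp5, are shown because they hold the sequence that interferon-activated factors recognise, GAAA, any 2 bases, GAAA. Each line is the 200 bases before the start site on the gene's own strand, from RefSeq (GRCm38.p6), with matches on either strand in capitals.
Ifit3: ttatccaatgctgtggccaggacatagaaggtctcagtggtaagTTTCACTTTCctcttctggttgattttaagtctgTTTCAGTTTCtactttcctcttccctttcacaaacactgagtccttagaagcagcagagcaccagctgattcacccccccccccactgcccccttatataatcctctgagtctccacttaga
Ifi205: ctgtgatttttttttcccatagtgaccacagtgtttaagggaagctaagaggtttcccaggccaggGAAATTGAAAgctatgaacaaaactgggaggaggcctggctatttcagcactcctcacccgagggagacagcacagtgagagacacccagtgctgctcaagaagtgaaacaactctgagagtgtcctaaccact
Irgm1: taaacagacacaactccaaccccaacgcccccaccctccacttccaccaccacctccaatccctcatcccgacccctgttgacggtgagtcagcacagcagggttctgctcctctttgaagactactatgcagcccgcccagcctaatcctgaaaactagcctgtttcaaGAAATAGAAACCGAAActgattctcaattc
Gbp5: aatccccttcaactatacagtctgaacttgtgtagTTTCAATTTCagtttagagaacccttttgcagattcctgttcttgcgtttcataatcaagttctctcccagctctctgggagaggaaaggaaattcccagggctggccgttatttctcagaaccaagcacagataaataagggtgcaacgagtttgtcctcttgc

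These stretches lie at chr19:34583329-34583528 (plus strand) for Ifit3, chr1:174031756-174031955 (minus) for Ifi205, chr11:48871421-48871620 (minus) for Irgm1 and chr3:142496734-142496933 (plus) for Gbp5, upstream of the annotated start sites. The matches begin 156 and 122 bases before the start site in Ifit3, 134 before it in Ifi205, 30 and 24 before it in Irgm1, where they overlap, and 165 before it in Gbp5. Ifi205 has another match that begins 23 bases after its start site, outside the stretch shown. Over windows of 250 bases before to 50 after the start, the sequence occurred in 12 of the 22 antiviral genes whose promoter was in the RefSeq table (54.5%). It occurred in 5 of 7 genes of the interferon-gamma list (71.4%), in 344 of 8503 genes tested here that had a promoter (4.05%) and in 1131 of all 32851 promoters (3.44%). Of the 5 antiviral genes above the range by 0.585, 3 had a promoter in the table and 2 of these held a match, Ifit2 being the one without. A match is a description of the letters in a window and does not show binding.

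Ifit2, whose protein binds viral RNA, stood at 3.52 in colitis against 2.35, 2.28 and 2.81. The related gene Ifit3 stood at 4.42 against 3.70, 3.71 and 3.82. In both genes the 3 steady-state values lay closer together than the gap to colitis, at a distance of 0.71 for Ifit2 and 0.60 for Ifit3. Mx2, which encodes an antiviral GTPase, stood at 0.79 against -0.23, -0.15 and 0.06. Rtp4, a chaperone of membrane receptors that interferon induces, was at 3.97 against 3.05, 3.22 and 2.84. Ifi205, of the DNA-binding p200 protein family, stood at 3.74 against 2.97, 2.85 and 2.83, and Ifi213, of the same family but in no list, at 2.63 against 0.11, 1.23 and 1.19. The distance of Ifi213 was 1.40. Members of this family are similar in sequence, and how far their probes cross-react was not tested. The other antiviral genes had smaller distances, among them Oas2 (0.58), the pro-apoptotic gene Xaf1 (0.53), the nucleic acid sensor gene Zbp1 (0.40) and Parp14 (0.39). Rsad2 (2.46 against 1.45, 1.89 and 2.48), Isg20 and Siglec1 lay inside the range, the highest steady-state value being that of the reconstituted array.

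The GTPase and chemokine genes that interferon gamma induces were above the range in 8 of 13 members by any amount and below in 0. Over all genes 23.5% were above and 31.9% below by any amount, and 1.2% above by 0.585 or more. By 0.585 or more, 3 members of this list were above. Iigp1, an immunity-related GTPase that attacks the vacuoles of intracellular microbes, stood at 3.73 in colitis against 2.11, 2.39 and 0.91. Irgm1, a regulator of the same GTPase family, was at 4.12 against 3.14, 3.43 and 2.94. Gbp5, a guanylate-binding protein that promotes inflammasome assembly, stood at 3.20 against 2.51, 2.46 and 2.12. In each of the 3 genes the reconstituted array was the lowest. That all steady-state values were lower than the colitis value is set by the rule that picked them. Cxcl9, a T cell chemokine gene, had a distance of 0.35 (6.27 against 5.92, 5.63 and 5.10), whereas Cxcl10 (5.58 against 5.30, 5.65 and 5.82) and Cd274, which encodes the checkpoint ligand PD-L1 (4.74 against 4.77, 4.57 and 5.13), were inside the range.

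The components that signal for interferon were less displaced than their targets. Of 13 past the filter, 5 were above and 2 below by any amount and 0 by 0.585, with a median difference of 0.06. Over all genes 23.5% were above and 31.9% below by any amount. Stat2 (3.92 against 3.48, 3.35 and 3.35) and Irf1, a transcription factor (5.36 against 4.96, 4.92 and 4.31), had the largest distances, 0.44 and 0.40. The receptor genes Ifnar1, Ifnar2, Ifngr1 and Ifngr2 differed from the steady-state mean by between -0.21 and 0.14. The interferon genes Ifnb1 and Ifng were under the brightness filter, at -1.18 and -1.18 in colitis and at -0.80 or less in every steady-state array. Genes that load peptides onto MHC class I were above the range in 8 of 11 by any amount and below in 1 (Psmb10), and 0 reached 0.585. Their median difference was 0.40. Nlrc5, the activator of class I genes, stood at 4.61 against 4.00, 3.66 and 4.13, and the peptide transporter gene Tap1 at 4.29 against 3.90, 3.77 and 3.43. Among 10 MHC class II presentation genes 0 were above and 1 below by any amount, and their median difference was -0.0018.

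The mean level of the antiviral list was higher in each of the 4 arrays outside the comparison, although single members such as Ifit2 were not higher in all of them. Mean levels of the antiviral list were 3.12 in the colitis CX3CR1hi array, 2.62, 2.70 and 2.75 at steady state, 3.61 in CX3CR1int Ly6Clo cells and 4.06 in CX3CR1int Ly6Chi cells. In splenic monocytes the mean was 4.46 at steady state and 4.29 in colitis. The list thus ran in the opposite direction in the spleen, with a median colitis minus steady-state difference of -0.17, a pair whose sex labels also differ. Iigp1 was low in both splenic arrays, at -0.11 and -0.32.

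**Figure D2:**
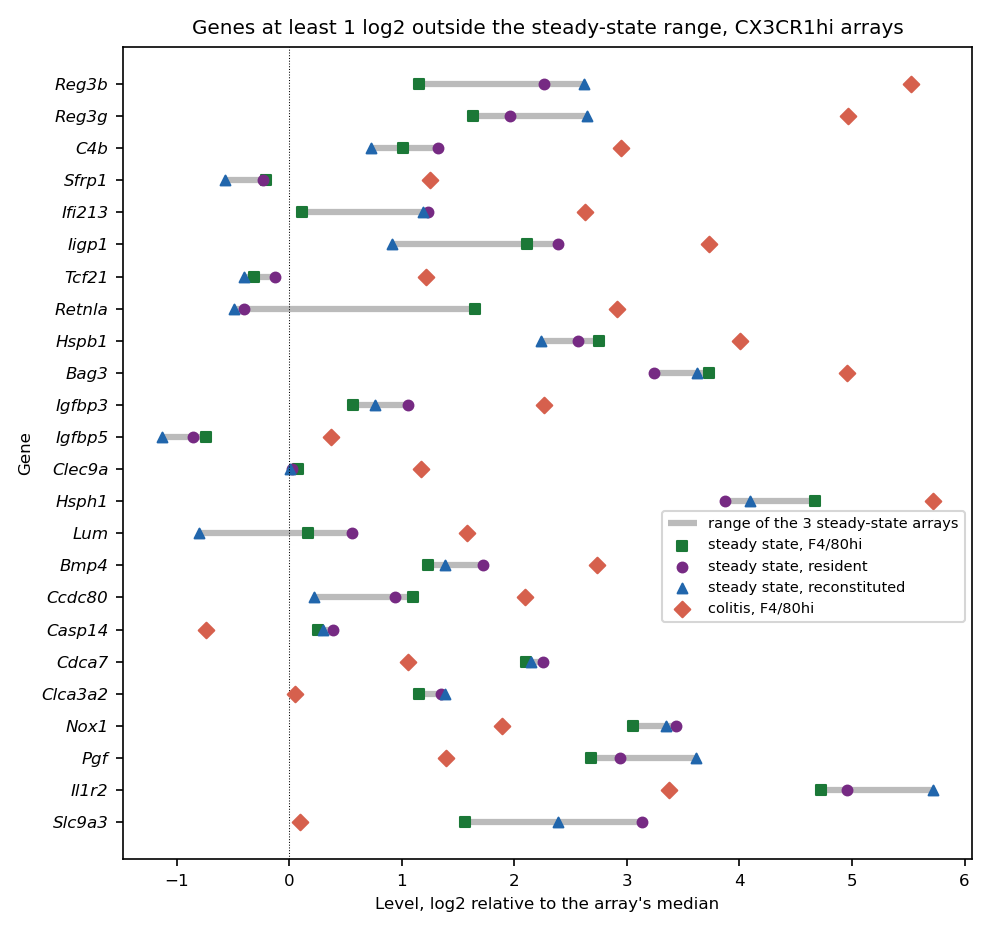
Levels, in log2 relative to the array median, of the 24 named genes at least 1 outside the steady-state range; each symbol is 1 array and the grey bar spans the 3 steady-state arrays. In the 17 upper genes the red colitis diamond lies right of the bar, farthest for Reg3b (5.52 against a steady-state maximum of 2.62), and in the lower 7 it lies left of it.

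The largest distances belonged to Reg3b and Reg3g, antibacterial lectins of gut epithelium that rise in injured mucosa. Reg3b stood at 5.52 in colitis against 1.16, 2.26 and 2.62, a distance of 2.90 or 7.48-fold beyond the highest steady-state array. Reg3g stood at 4.96 against 1.64, 1.96 and 2.64, a distance of 2.32. For both genes the steady-state values spread over at least 1 unit, and that they did not reach the colitis value is set by the rule. In CX3CR1int Ly6Chi cells of the same condition both were near the colitis CX3CR1hi values (5.42 and 4.71), and in CX3CR1int Ly6Clo cells they were low (0.91 and 0.68). Other epithelial genes did not share this. Of 18 epithelial markers, all past the filter, 0 were above the range and 11 were below it by any amount, against 31.9% of all genes, and the median difference was -0.51. The summed level of the list, in multiples of the array median, was 981 in colitis and 1031 to 1491 at steady state. Of 13 epithelial injury genes past the filter, Reg3b and Reg3g were the 2 above by 0.585 or more, where 1.2% of all genes were. The median difference of these 13 was -0.21. The part of epithelial RNA in the Reg3b and Reg3g values was not tested.

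Among the 8 genes below the range by 1 or more were some known from epithelium, which are in none of the lists. Slc9a3, the sodium-proton exchanger of the absorptive surface, stood at 0.09 in colitis against 1.57, 3.13 and 2.39. Nox1, the superoxide-producing oxidase of colonic epithelium, stood at 1.89 against 3.05, 3.44 and 3.35, and Clca3a2, a chloride channel accessory protein, at 0.05 against 1.15, 1.35 and 1.38. That all 3 were lower in colitis than in every steady-state array is set by the limit that picked them. All 3 were lower still in both CX3CR1int arrays, at 0.71 or less. Krt20, a keratin of mature surface cells in the epithelial marker list, stood at 2.33 against 3.06, 4.33 and 3.22, a distance of -0.74. Casp14, a caspase known from cornifying epithelium, stood at -0.74 against 0.26, 0.39 and 0.30, a distance of -1.003. It passed the brightness filter through the steady-state arrays alone, so that it could enter only as lower. Muc2, Car1, Agr2, Zg16 and Epcam, among the marker genes of goblet cells and colonocytes, lay inside the range. How far the amount of epithelial RNA in each sort contributed to these values was not tested.

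A subset of the complement genes was higher in colitis. Of 17 members past the filter 7 were above and 2 below by any amount. By 0.585 or more 5 were above and 0 below, and the median difference was 0.08. Over all genes 23.5% were above and 31.9% below by any amount, and 1.2% above by 0.585 or more. C4b, which encodes a component of the classical and lectin pathways, stood at 2.95 in colitis against 1.01, 1.32 and 0.73, a distance of 1.63. The limma difference from the steady-state mean was 1.93 with a standard error of 0.26 and an adjusted p of 0.80. C2, the protease that joins C4 in the next step, stood at 0.14 against -0.56, -0.51 and -1.14. C1s1, a protease of the first component, was at 0.41 against -0.59, -0.51 and -0.61, and Serping1, the inhibitor of that protease, at 3.58 against 2.46, 2.77 and 2.58. Vsig4, a macrophage receptor for complement fragment C3b, stood at 0.81 against -0.87, -0.17 and -1.47. In all 5 genes every steady-state value lay below the colitis value, as the rule that picked them requires. C1s1, C2 and Vsig4 passed the filter through the colitis array alone, so that these 3 could enter only as higher. By contrast, the C1q genes, the receptor genes C3ar1 and C5ar1 and factor B (Cfb, 2.63 against 2.27, 2.78 and 3.25) were inside the range.

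Of these 5 genes, Serping1 was also high in CX3CR1int Ly6Chi cells (3.21), whereas C4b (0.68), Vsig4 (-1.29) and C2 (-1.06) were not. C4b was at 0.29 in CX3CR1int Ly6Clo cells and at 0.22 and 0.05 in splenic monocytes. The mouse has a close copy, C4a, read from a probe set of its own and under the filter (-0.91 in colitis against -1.11, -1.19 and -1.52).

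Scavenger receptors and tissue macrophage genes were higher on balance, with a wide steady-state spread. Of 21 past the filter 8 were above and 1 below by any amount, where 23.5% of all genes were above and 31.9% below. By 0.585 or more 2 were above, where 1.2% of all genes were, and the median difference was 0.31. Cd163, the receptor that clears haemoglobin bound to haptoglobin, stood at 3.27 in colitis against 1.83, 2.39 and 0.19. Cd36, a receptor for oxidised lipid and dying cells, stood at 5.46 against 4.84, 4.82 and 4.25. The hyaluronan receptor gene Lyve1 (3.76 against 2.77, 3.25 and 2.03) and the carbonyl reductase gene Cbr2 (5.26 against 4.02, 4.80 and 3.18) were above by 0.50 and 0.46. In Cd163, Lyve1 and Cbr2 the reconstituted array was the lowest and the resident array came nearest to colitis. Cd209f shows what that spread does: at 2.25 in colitis against -0.45, 2.66 and -0.87 it lay inside the range, although its difference from the mean was 1.81. Mrc1, Mertk, Axl and Msr1 were inside the range. Haem genes lay on both sides. Hmox1, the enzyme that breaks haem down, stood at 5.26 against 4.41, 4.05 and 4.68 and missed the smaller limit, and Spic, a transcription factor of iron-recycling macrophages, stood at 3.70 against 2.76, 2.86 and 3.25. Transferrin receptor (Tfrc) was lower, at 2.33 against 2.82, 3.31 and 3.39. Of 18 haem and iron genes 6 were above and 4 below by any amount, with 0 past 0.585.

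Retnla, a secreted protein of alternatively activated macrophages, stood at 2.91 in colitis against 1.65, -0.40 and -0.49, so that both F4/80hi arrays, which share a gate and a labelled sex, were above the other 2. Ch25h, which makes the oxysterol that guides immune cells, stood at 2.41 against 1.61, 1.53 and 0.83. Clec9a, a receptor for dead cells best known from cross-presenting dendritic cells, stood at 1.17 against 0.08, 0.02 and 0.01. Clec9a was at 3.81 in CX3CR1int Ly6Clo cells, 0.94 in CX3CR1int Ly6Chi cells and 0.20 and -0.05 in splenic monocytes. The rest of the dendritic cell marker list lay on both sides. Of 9 past the filter 3 were above and 3 below by any amount, where 23.5% and 31.9% of all genes were. Clec9a alone passed 0.585, and the summed level was 53.1 in colitis and 53.6 to 71.5 at steady state.

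A subset of the heat shock and chaperone genes was higher in colitis. Of 20 heat shock and chaperone genes, all past the filter, 10 were above and 5 below by any amount. By 0.585 or more 5 were above and 0 below, and the median difference was 0.09. Over all genes 23.5% were above and 31.9% below by any amount, and 1.2% above by 0.585 or more. Hsph1, a nucleotide exchange factor of HSP70, stood at 5.72 in colitis against 4.67, 3.87 and 4.10. Hspb1, a small heat shock protein, stood at 4.01 against 2.75, 2.56 and 2.24, and Bag3, its partner in clearing damaged proteins, at 4.95 against 3.73, 3.24 and 3.62. Dnajb1 stood at 5.02 against 4.04, 3.76 and 3.90, and Dnajb4 at 4.87 against 4.08, 3.94 and 3.89, both HSP40 proteins that hand clients to HSP70. Every one of these colitis values was at least 0.79 above the highest steady-state array, where the limit that picked them was 0.585. The inducible HSP70 gene Hspa1a (6.73 against 6.38, 6.33 and 6.38) and mitochondrial Hspd1 (5.66 against 5.30, 5.14 and 5.03) had distances of 0.35 and 0.37. The 5 members below the range were Xbp1, Hsp90b1, Pdia4, Herpud1 and Ddit3, genes of the endoplasmic reticulum and its stress response, at distances between -0.18 and -0.01. Hsph1 and Dnajb1 were also high in CX3CR1int Ly6Clo cells (5.66 and 4.49) and not in CX3CR1int Ly6Chi cells (4.05 and 3.18). Immediate early genes, which respond fast to many stimuli, were above in 10 of 21 by any amount and below in 3, with 0 past 0.585. The heat shock element, here GAA, TTC and GAA with any 2 bases between each, was sought in the promoters. It was found in 4 of the 18 genes of the list that had a promoter (22.2%). Among genes tested here that had a promoter it was found in 45 of 8503 (0.529%), and among all promoters in 0.603%. Of the 5 genes above by 0.585 or more, Hsph1 alone held a match, beginning 36 or 15 bases after the start, depending on the annotated start site. The other matches were in Hspd1, Hspe1 and Chordc1, which did not reach that limit. This motif was chosen after the values were seen.

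**Figure D3:**
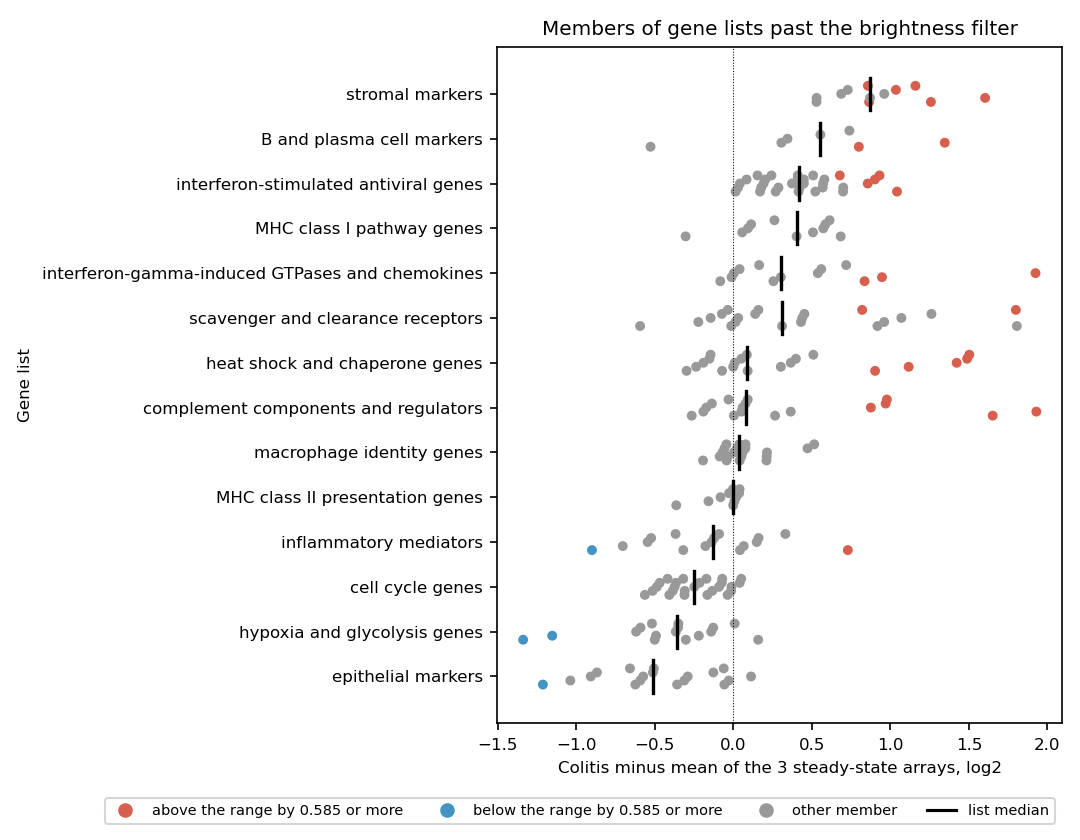
Difference between the colitis array and the mean of the 3 steady-state arrays, in log2, for members past the filter of 14 gene lists; each point is a gene, the bar the list's median, and red or blue marks genes past 0.585 outside the range. Medians run from 0.87 (stromal markers) to -0.51 (epithelial markers), and the antiviral list (0.42) has every member right of 0 whereas complement (0.08) and heat shock (0.09) have a few genes far to the right of the rest.

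Marker genes of fibroblasts and smooth muscle were higher in colitis as a whole list. All 12 members past the filter were above the steady-state range by any amount, where 23.5% of all genes were; Pdgfrb among them passed through the colitis array alone. By 0.585 or more, 6 were above, where 1.2% of all genes were. The median difference was 0.87, the largest of the pathway and marker lists apart from the sex-linked genes, and it was 0.73, 0.69 and 1.35 against the 3 arrays in turn. Dcn stood at 5.56 against 4.22, 4.72 and 3.97, Pdgfra, the platelet-derived growth factor receptor of fibroblasts, at 1.55 against 0.32, 0.65 and 0.19, and Lum, a collagen-associated proteoglycan, at 1.58 against 0.16, 0.56 and -0.81. Mgp, an inhibitor of calcification, Col1a2, a chain of collagen I, and Acta2, smooth muscle actin, were above by 0.81, 0.72 and 0.66. The summed level of the list was 112 in colitis and 43.1 to 66.5 at steady state, 91.7 in CX3CR1int Ly6Chi cells, 47.0 in CX3CR1int Ly6Clo cells and 14.5 and 15.2 in the spleen. Thy1, also a marker of these cells, was under the array median everywhere, at -0.997 in colitis.

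Secreted and regulatory genes that stromal cells are known to express stood beside them among the genes above by 1 or more. Sfrp1, an inhibitor of Wnt signalling, stood at 1.25 against -0.21, -0.24 and -0.57. Tcf21, a transcription factor of fibroblast precursors, stood at 1.21 against -0.31, -0.13 and -0.40. Bmp4, a bone morphogenetic protein, stood at 2.74 against 1.24, 1.72 and 1.38. Sfrp1 and Tcf21 passed the brightness filter through the colitis array alone, as did Igfbp5 and Vcan, so that these 4 could enter only as higher. The insulin-like growth factor binding protein genes Igfbp3 (2.26 against 0.56, 1.05 and 0.77) and Igfbp5 (0.37 against -0.74, -0.86 and -1.13) and the matrix gene Ccdc80 (2.10 against 1.10, 0.94 and 0.22) had distances of 1.21, 1.11 and 1.00. Fn1, fibronectin, and Vcan, the proteoglycan versican, which both macrophages and fibroblasts express, were above by 0.75 and 0.62. Vcan, at 0.42, remained far under its level in CX3CR1int Ly6Chi cells (5.42) and splenic monocytes (4.68 and 4.96). The chemokine genes Cxcl12 (0.87 against -0.13, 0.10 and -0.19) and Ccl11, eotaxin (2.55 against 1.72, 1.84 and 1.58), were above too. Complement C1s1 and Serping1, described above, also belong to genes that fibroblasts express. The part of stromal RNA in all these values was not tested.

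B and plasma cell markers were likewise higher. Of 7 past the filter 6 were above by any amount and 0 below, where 23.5% of all genes were above; Tnfrsf17 passed through the colitis array alone and could only count as above. The summed level was 158 in colitis and 71.0 to 121 at steady state. Igha, the heavy chain of IgA, stood at 5.77 against 4.98, 4.79 and 3.52, and Tnfrsf17, a plasma cell survival receptor, at 0.42 against -0.18, -0.26 and -0.71. Igha was at 6.35 in CX3CR1int Ly6Chi cells. Ighg3, the constant region of an IgG heavy chain, is in no list and is named here after its values were seen. It stood at 3.20 against -0.67, -0.21 and 1.01, a distance of 2.19. Pancreatic acinar genes, whose transcripts were in these sorts in unequal amount, were inside the range in all 13 members past the filter, with a summed level of 109 in colitis and 63.4 to 167 at steady state. Neutrophil markers (26.0 against 22.4 to 89.5) and endothelial markers (15.0 against 14.7 to 16.9) had summed levels inside the steady-state spread.

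Genes of the response to low oxygen were lower. Of 16 hypoxia and glycolysis genes past the filter 0 were above and 11 below by any amount, where 31.9% of all genes were below. The median difference was -0.36, at -0.10, -0.44 and -0.51 against the F4/80hi, resident and reconstituted arrays. Vegfa, the vascular growth factor, stood at 2.59 in colitis against 3.30, 4.16 and 3.76. Egln3, an oxygen sensor that the hypoxia factor itself induces, stood at -0.03 against 0.65, 1.55 and 1.75, and passed the filter through the steady-state arrays alone. In both genes the steady-state F4/80hi array was the nearest. The glycolytic genes Pgam1 (3.53 against 4.01, 4.06 and 4.28) and Pgk1 (4.16 against 4.53, 4.84 and 4.65) had distances of -0.49 and -0.37. Hif1a, the hypoxia factor gene, was inside the range (5.08 against 5.05, 5.35 and 5.21). Pgf, placental growth factor, which acts on a receptor for Vegfa, stood at 1.39 against 2.68, 2.94 and 3.62, a distance of -1.29. In CX3CR1int Ly6Chi cells of the same colitis Vegfa was at 5.06 and Egln3 at 2.29, above all 4 CX3CR1hi arrays. Epithelial cells also express genes of this list, and the part of epithelial RNA was not tested.

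A gene in no list that was below by more than 1 was Il1r2, the decoy receptor that captures interleukin 1 without signalling. It stood at 3.38 in colitis against 4.73, 4.95 and 5.72, a distance of -1.35, and at 6.24 and 5.21 in the CX3CR1int Ly6Clo and Ly6Chi cells. In splenic monocytes Il1r2 was at 0.41 and 0.24. Among the interleukin 1 genes themselves, Il1b stood at 6.76 against 6.99, 6.90 and 6.82, and Il1a at 4.47 against 4.44, 4.77 and 5.84. Of 16 inflammatory mediators past the filter 2 were above and 6 below by any amount, where 23.5% and 31.9% of all genes were. Saa3, an acute phase protein that macrophages make, was the only one above by 0.585 (0.45 against -0.20, -0.45 and -0.19), passing the filter through colitis alone, and Cxcl1, a neutrophil attractant, the only one below (2.66 against 3.60, 3.51 and 3.56). Ptgs2, the inducible cyclooxygenase, and Nlrp3, the inflammasome sensor, were below at distances of -0.45 and -0.44. Pla2g4c, a phospholipase, stood at 0.27 against 3.66, 3.02 and 1.03, a distance of -0.76 despite a steady-state spread of 2.63.

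Tnf stood at 4.27 in colitis against 4.29, 4.38 and 3.64, inside the range. Il10, the cytokine that restrains these macrophages, stood at 4.76 against 4.78, 5.18 and 4.12. Il12b (0.22 against -0.11, 0.27 and 0.36), the bacterial sensor gene Nod2 (0.90 against 0.64, 0.96 and 0.90) and the monocyte chemokine receptor gene Ccr2 (4.70 against 5.02, 4.29 and 4.06) were inside the range as well. Il6 (-0.31 against -0.72, -0.64 and -0.87) and Il23a (-0.90 against -0.50, -0.21 and -0.52) stayed under the brightness filter. In the CX3CR1int Ly6Chi cells Il6 was at 2.92, Il23a at 1.87 and Nod2 at 3.40, so these transcripts stood higher in that array than in any CX3CR1hi array. Of 23 chemokine genes past the filter 9 were above and 4 below by any amount, where 23.5% and 31.9% of all genes were. Ccl5, a T cell attractant, stood at 4.60 against 3.63, 3.68 and 2.23, with 5.68 in CX3CR1int Ly6Clo cells. Cd177, a neutrophil and monocyte surface protein, was lower, at 1.79 against 2.63, 3.11 and 3.17.

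Cell cycle genes tended to lie low. Of 25 past the filter 0 were above and 13 below by any amount, where 31.9% of all genes were below, 0 by 0.585, with a median difference of -0.25. That median was -0.02 against the F4/80hi array, -0.29 against the resident and -0.36 against the reconstituted array. Cdca7, a chromatin factor of dividing cells that was in no list, stood at 1.05 against 2.10, 2.25 and 2.15, a distance of -1.05.

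**Figure D4:**
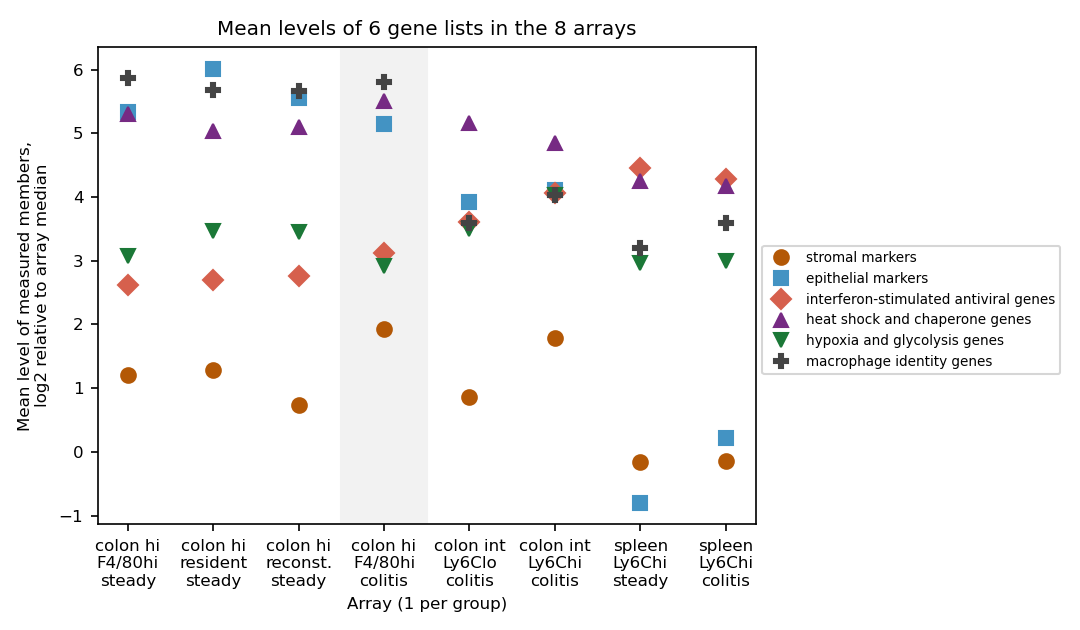
Mean level of the measured members of 6 gene lists, in log2 relative to the array median, in each of the 8 arrays (1 array per group, colitis CX3CR1hi shaded). Macrophage identity genes are alike in the 4 CX3CR1hi arrays (5.66 to 5.87), antiviral genes are higher in the colitis array (3.12) than in its steady-state counterparts (2.62 to 2.75) and highest in the spleen (4.29 and 4.46), and stromal markers are highest in the colitis CX3CR1hi array (1.93).

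Which steady-state array came nearest differed by direction. Among the 127 genes above by 0.585 the highest steady-state value was that of the resident array in 67, the F4/80hi array in 37 and the reconstituted array in 23. Among the 79 below, the lowest steady-state value was that of the F4/80hi array in 64, the reconstituted array in 9 and the resident array in 6. Set against the F4/80hi array alone, which shares gate and labelled sex with the colitis array, 324 genes were at least 0.585 higher and 196 lower. Among them were all 127 above the range and 77 of the 79 below. The rule that picked them ensures this overlap, except for genes under the brightness filter when only these arrays are used.

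The splenic monocytes gave a colitis and steady-state pair that shares no array with this comparison. Over 9150 genes bright in that pair, 140 (1.53%) were at least 0.585 higher in colitis and 30 (0.328%) lower. Of the 127 genes above the range in CX3CR1hi cells 60 were among them, with 3 higher (5%) and 3 lower (5%) and a median difference of -0.06. Of the 79 genes below, 24 were among them, with 2 higher (8.33%) and 0 lower. Read the other way, 2.14% of the 140 genes higher in the spleen were above the range in the colon, where 60 of all 9150 genes were. Of the 30 genes lower in the spleen 0% were below that range, where 24 of all 9150 genes were. Counts this small cannot show whether the colon and the spleen share a change. The splenic arrays are single arrays of opposite sex label, and no test was made.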

How the data were processed

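The deposited table held log2 values of 35399 probe sets for 8 Affymetrix arrays, made by the authors with RMA and Partek per the submitters' processing notes; versions and settings are not given in the sources used here. RMA corrects background, quantile normalizes and summarises probes, so shifts of whole arrays are removed. Array medians were 5.77 to 5.87. Genes were named from 21789 probe sets with 1 symbol (1621 had several, 11989 were unnamed), giving 19938 genes; 999 had more than 1 probe set and were read from the brightest. Entrez identifiers of 21698 probe sets matched RefSeq and changed 0 symbols.

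Each array was centred on its median. The fit was limma 3.58.1 in R 4.3.3, colitis against 3 arrays, with Benjamini-Hochberg adjustment; the lone colitis array is assumed to vary as the others do, and the number of arrays limits the precision. It was tested on data simulated with each gene's steady-state mean and SD. There the fit missed every gene changed by 1 and found only a part of those changed by 2. The range rule at the limit of 1 found 97 of 100 genes changed by 2, and also 49 unchanged genes. The members and the 37 lists (571 of 626 members measured) were chosen with earlier results of these data known. Named were the genes 1 or more outside the range, up to 8 members per list past 0.585, and 14 chosen genes (1 is not reported here); clones, predicted genes and antigen receptor segments, 19 in all past 0.585, were not named among the largest. Other members are named as examples, chosen after their values were seen. Alternatives changed the filter, normalization, probe set rule, prior and arrays. Python 3.11.15 was used.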

Additional observations from a re-analysis of the deposited data

Results flagged for a closer look

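Hsph1, the HSP70 exchange factor, moved in opposite directions in the colon and the spleen. In colonic CX3CR1hi cells it was above all 3 steady-state arrays in colitis, by 1.04 over the highest. In splenic Ly6Chi monocytes it stood at 2.77 in colitis and 3.64 at steady state, a difference of -0.87. The splenic pair has 1 array per condition and opposite sex labels, and the difference between the tissues was not tested.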

How the results depend on the processing

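The 4 counts in the order above by 0.585, below by 0.585, above by 1 and below by 1 (127, 79, 18 and 8 as reported) moved with the steady-state arrays, the filter, the centring and the features used. Leaving out 1 of them gave 163 to 203, 99 to 604, 31 to 59 and 10 to 146, and each time the reported genes remained, as the rule ensures. The F4/80hi array alone gave 324, 196, 95 and 33. A filter at the 75th percentile gave 49, 44, 11 and 5 among 6017 genes. Without centring, 48 genes were below by 0.585 and 29 above by 1, and centring on genes past the filter gave 29 above by 1. All probe sets, unnamed ones included, gave 351, 154, 58 and 14. Quantile normalization, no filter, a filter on the steady-state mean and averaged probe sets kept the counts within 1.5 times. The cause was not tested where construction does not give it. Limma made 0 calls at each setting, with 324 to 1076 unadjusted p under 0.05 in the settings that keep all 4 arrays, except without the steady-state F4/80hi array. There the calls were 4 higher and 1 lower (Eif2s3y, Kdm5d, Retnla, Uty and Xist, 4 of them sex-linked), so that leaving out an array gave 0 to 4 higher and 0 to 1 lower. Of the 59 named genes past 0.585, 56 passed it at every setting run; the smallest distances of the others were 0.562 (Tnfrsf17), 0.575 (Egln3) and 0.576 (Cd36) in size. All 59 stayed outside the range. Over these settings the median difference was 0.33 to 0.49 for antiviral genes, 0.20 to 0.44 for the interferon-gamma list, 0.33 to 0.54 for MHC class I, 0.12 to 0.43 for scavenger receptors, 0.71 to 1.02 for stromal markers, -0.57 to -0.28 for hypoxia genes and -0.60 to -0.30 for epithelial markers. It changed sign for lists near 0, among them macrophage identity (-0.01 to 0.11), MHC class II and dendritic cell markers (-0.47 to 0.25).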
